A study of Homo sapiens with 30 samples.

Results

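The transcripts described here are 756 long non-coding RNA genes whose symbols place them against a neighbouring gene, out of 16009 genes in a table of transcript 5′ ends from a human melanoma cell line. Of these, 291 carry the ending -DT, given to a divergent transcript that leaves the promoter region of a coding gene in the opposite direction, and 465 carry -AS and a number, given to an antisense transcript that runs against a coding gene. Members were every row of the table whose gene identifier the GENCODE 44 annotation (hg38) calls a lncRNA with such a symbol. The coding gene of the same name, called the partner below, was also in the table for 283 -DT and 386 -AS members.

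The cells were MEL624, a human melanoma line. Control cells were wild type and carried a random single guide RNA, and knockout (KO) cells had been edited with CRISPR in PCIF1, the enzyme that methylates the N6 position of an adenosine standing next to the mRNA cap. The assay, m6Am-Exo-Seq, digests RNA with an exonuclease that spares capped 5′ ends and then immunoprecipitates (IP) them with an antibody against N6-methyladenosine. The libraries formed 4 groups of 3 biological replicates: control input, control IP, KO input and KO IP, all IPs with antibody 4. The labels do not say whether the 3 KO replicates are different clones, and none of these 4 groups had PCIF1 put back. The 18 first-stage libraries, with 8 antibodies tested on 1 library each, were not analysed here.

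Most mammalian promoters are used in both directions: RNA polymerase II also starts upstream of a coding gene and transcribes away from it. Such upstream transcripts are capped like mRNAs but are mostly short-lived, because early cleavage and polyadenylation followed by the nuclear exosome, with its adaptor complexes and the Integrator complex, removes them. Antisense genes have starts of their own, often within the body of the gene they oppose. When a transcript begins with adenosine, that base can carry N6,2′-O-dimethyladenosine (m6Am), the product of PCIF1. The antibody also binds internal N6-methyladenosine (m6A), which PCIF1 does not make, where it lies close enough to the 5′ end to stay on the protected fragment.

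The annotation bore out most of the names, though not all. Of the 283 -DT genes with a partner, 201 started outside it and pointed away from it, and 165 of these left at most 300 bases between both starts (median of the 201 gaps, 133 bases). Another 81 started inside the partner on the opposite strand. Among the 386 -AS genes with a partner, 276 started inside it, 26 were divergent, 82 lay otherwise and 2 were annotated on the partner's own strand. The median distance between the 2 starts was 153 bases for -DT pairs and 1390.5 bases for -AS pairs. Each start is the first base of a gene's record and so lies in its first exon.

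The stretches between 2 divergent starts show how little DNA separates them. The 5 printed here, from hg38, were chosen among the -DT members with large antibody enrichment, large depletion or a large difference between genotypes. Each reads 5′ to 3′ on the strand of the -DT gene. The capital at the left end is the complement of the partner's first base, and the capital at the right end is the first base of the -DT transcript. They lie at chr2:74833987-74834127 (minus strand, HK2-DT), chr1:40257971-40258041 (minus, ZMPSTE24-DT), chr3:33798539-33798571 (minus, PDCD6IP-DT), chr11:83071923-83072052 (plus, RAB30-DT) and chr10:86521792-86521945 (plus, WAPL-DT).
HK2-DT: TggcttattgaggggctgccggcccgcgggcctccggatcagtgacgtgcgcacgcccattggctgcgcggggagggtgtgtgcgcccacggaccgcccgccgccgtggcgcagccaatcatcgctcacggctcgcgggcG
ZMPSTE24-DT: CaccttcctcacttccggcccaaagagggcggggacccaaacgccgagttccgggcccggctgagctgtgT
PDCD6IP-DT: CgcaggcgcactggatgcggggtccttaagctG
RAB30-DT: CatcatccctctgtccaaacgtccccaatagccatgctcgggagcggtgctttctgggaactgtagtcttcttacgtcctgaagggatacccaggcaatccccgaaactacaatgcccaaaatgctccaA
WAPL-DT: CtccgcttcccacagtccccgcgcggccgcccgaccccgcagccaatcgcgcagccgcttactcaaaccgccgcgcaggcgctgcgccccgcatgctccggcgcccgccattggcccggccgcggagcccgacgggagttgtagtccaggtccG
The HK2-DT stretch is 74.5% G+C with 21 CG dinucleotides in 141 bases, whereas the RAB30-DT stretch is 52.3% G+C with 5 in 130 bases. The shortest, for PDCD6IP-DT, has 33 bases from the first base of the -DT gene to that of PDCD6IP. RAB30-DT begins with A by the annotation, ZMPSTE24-DT with T and the other three with G.

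For -AS genes, 4 starts are shown, each with its first base as a capital between the 20 bases before it and the 9 after it. They are the 2 named members most enriched by the antibody in control cells, TMCO1-AS1 (chr1:165768909-165768938, plus strand) and USP2-AS1 (chr11:119356447-119356476, plus), and the 2 most depleted, UGDH-AS1 (chr4:39527700-39527729, plus) and PIK3CD-AS2 (chr1:9687574-9687603, minus).
TMCO1-AS1: ccggaaaggctcgtatcggaGaacggtgtg
USP2-AS1: tgatgctcccagcgagctccAgagggcgct
UGDH-AS1: ccctaccgcgagcggcgctgGgcggggctg
PIK3CD-AS2: gcccccggccccgcccccacGccctcccat
USP2-AS1 begins with A and the other three with G, although the canonical transcript of UGDH-AS1 begins with C.

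Promoter windows from RefSeq (GRCh38.p14, 250 bases before to 50 after the start) were matched for 221 -DT and 358 -AS members and for 10541 genes of the table. The share holding GGGCGG on either strand was 75.1% for -DT, 66.8% for -AS and 71% for all matched genes. CCAAT was present in 29.4% of -DT, 32.4% of -AS and 37.1% of all windows, CGGAAG in 36.2%, 28.8% and 33.7%, and TATAAA in 4.07%, 3.63% and 5.22%. The median G+C content was 69.3% for -DT, 66% for -AS and 65.7% for all, and the median number of CG dinucleotides was 31, 25 and 27. The first annotated base was A for 28.9% of -DT and 31.4% of -AS genes, against 40% of protein-coding genes, and G for 45.4% of -DT and 40.6% of -AS genes, against 38.7%.

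Reads recovered from the table numbered 3232562 to 4094070 per control input, 4035815 to 4625190 per control IP, 2836120 to 3544669 per KO input and 1753164 to 2177874 per KO IP. Values below are CPM, read counts scaled to library size, as deposited, which hold a small added count, and differences are on the log2 CPM scale with standard errors (SE). Calls are at an adjusted p under 0.05 by limma over all 16009 genes. The PCIF1 5′ end stood at 57.8, 52.5 and 49.4 CPM in the control inputs and 70.4, 78 and 77.1 in the KO inputs, a change of 0.50 ± 0.14 (SE, n = 3, limma adjusted p = 0.0229). A 5′ end outside an edited part does not check the edit. Of 10 melanocyte markers only MITF, the lineage's transcription factor, was among the genes analysed here, at 14.1, 8.55 and 8.25 CPM in the control inputs. The listed receptors of dedifferentiated melanoma differed there. AXL stood between 869 and 982 CPM and EGFR at 135.8, 151.5 and 152.4, but NGFR at only 0.882, 0.992 and 1.24. Of the markers listed for other cell types, only PDGFRB (fibroblast) was among the genes analysed, at 16.2, 17.3 and 12.9 CPM in the control inputs.

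Members were much less abundant than their partners. The median of the mean log2 CPM over the 12 libraries was 1.45 for -DT and 1.58 for -AS, against 5.04 and 4.50 for their partners and 1.07 for the other 1231 lncRNAs. The typical -DT gene rested on 9 reads per control input and 7.33 per KO IP, and the typical -AS gene on 10.7 and 7. In the control inputs 258 of 283 -DT genes were below their partner, with a median difference of -3.68, and 336 of 386 -AS genes, with a median of -3.00. A mean log2 CPM of at least 2 was reached by 112 -DT (38.5%) and 189 -AS members (40.6%), and individual members named below come from these. Levels are not scaled for length, since each value counts reads at a start.

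As a class, both kinds of start made up more of the IP than of the input, and most of all in KO cells. Divergent transcripts took 0.182% ± 0.0044 of the reads in control inputs and 0.243% ± 0.0054 in control IPs (SD, n = 3). In KO cells they took 0.192% ± 0.0088 of the inputs and 0.3435% ± 0.0107 of the IPs. Antisense transcripts went from 0.357% ± 0.0121 to 0.447% ± 0.0166 in control cells and from 0.365% ± 0.0161 to 0.528% ± 0.0143 in KO cells. None of these input and IP groups overlapped. Each share is a part of the reads listed in the table, so a larger share can also come from smaller shares of other genes.

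The number of -DT reads per -AS read compared both classes within each library. It was 0.514, 0.506 and 0.515 in control inputs, 0.553, 0.539 and 0.537 in control IPs, 0.515, 0.54 and 0.526 in KO inputs, and 0.649, 0.648 and 0.653 in KO IPs. The KO IPs lay above all the other libraries. The log2 difference of KO IP from control IP was 0.26 and from KO input 0.30, each with a 2-sided exact permutation p = 0.1, the smallest that 3 libraries against 3 allow. Without the 5 most abundant members of each class the ratios became 0.518 in control inputs, 0.517 in control IPs, 0.535 in KO inputs and 0.543 in KO IPs. KO IPs and inputs then overlapped (log2 difference 0.02), and KO IPs stayed above control IPs without overlap by 0.07 (exact permutation p = 0.1), so most of the difference came from those few genes. Abundance was the mean over all 12 libraries, KO IPs included, so a gene high in the KO IPs was more likely to be left out.

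**Figure D1:**
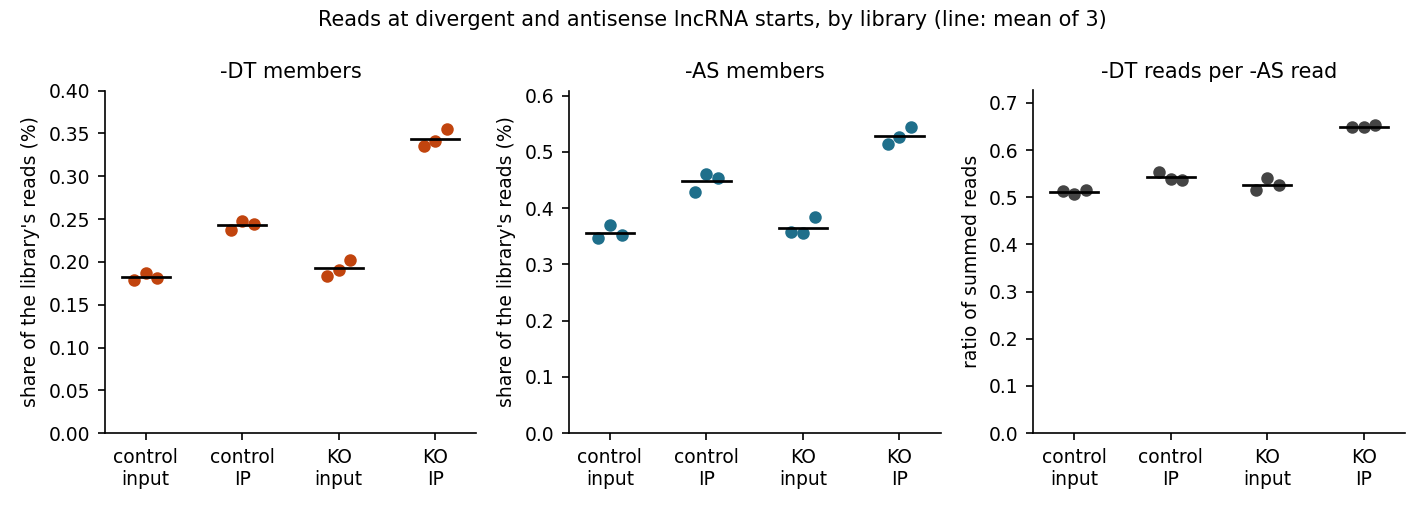
Share of reads in percent (y axis) for all -DT and all -AS members together, and -DT reads per -AS read, in the 3 libraries of each of the 4 groups (x axis); points are libraries and lines are means. The KO IPs were the highest for both classes, at 0.3345 to 0.3553% for -DT and 0.5154 to 0.5437% for -AS.

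In control cells the antibody enriched more of these starts than it depleted. Of the 291 -DT members, 75 were higher in the IP than in the input (25.8%) and 38 were lower (13.1%), and of the 465 -AS members 109 were higher (23.4%) and 51 lower (11%). Over all genes 27.7% were called higher and 28.2% lower. The share of members called higher was thus near the background, and the share called lower was below it. The median difference was 0.16 for -DT, 0.18 for -AS, -0.01 for all genes and 0.03 for protein-coding genes. Few reads limit calls either way: at a mean log2 CPM of at least 2, 46 of 112 -DT and 74 of 189 -AS members were higher and 24 and 33 lower, against 34.7% and 33.1% of all such genes. Centring libraries on 77 ribosomal protein mRNAs raised the all-gene median to 1.17 and changed the calls to 168 higher and 8 lower for -DT and 272 and 6 for -AS, beside 63.6% and 5.83% of all genes, but the members' medians stayed 0.18 and 0.20 above that of all genes.

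HK2-DT, divergent to hexokinase 2, which starts glycolysis, was among the most strongly enriched starts. The gene (ENSG00000272711, chr2:74832655-74833987, minus strand) stood at 23.2, 24.1 and 24.3 CPM in control inputs and 139, 128 and 155 in control IPs. Its enrichment was 2.56 ± 0.11 (SE, n = 3, adjusted p = 5.93e-13). CENATAC-DT, beside a gene of the minor spliceosome, had 8.14, 7.87 and 12 CPM in the inputs and 57.1, 56.8 and 51.9 in the IPs, a difference of 2.59 ± 0.22. AJUBA-DT, beside a LIM-domain scaffold gene, was rarer, at 2.7 to 3.84 CPM in the inputs and 17.1 to 22.4 in the IPs, with the same difference of 2.59 ± 0.23. The highest among -DT members was ARHGAP11B-DT, with 2.76, 1.91 and 2.99 CPM in the inputs and 13.3, 17.7 and 17.1 in the IPs (2.66 ± 0.28, adjusted p = 9.85e-08). RAB30-DT, beside a small GTPase of the Golgi, stood at 36.4, 24.1 and 29.6 CPM against 135, 190 and 182 in the IPs (2.50 ± 0.16). In each of these, every IP was above every input, in control and in KO cells alike.

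Other divergent starts were depleted. GATD1-DT fell from 9.75, 10.4 and 6.79 CPM in control inputs to 2.17, 1.39 and 1.09 in the IPs, a difference of -2.57 ± 0.41. WAPL-DT, beside the gene of the factor that releases cohesin from chromatin, fell from 7.6, 8.78 and 10.3 to 2.17, 2.7 and 1.34 CPM (-2.15 ± 0.36), and in KO cells by 1.93 ± 0.36. WAPL itself had means of 82.2, 75.7, 87.8 and 88 CPM in the 4 groups. MAP4K3-DT (-2.20 ± 0.27), MRPL20-DT (-1.96) and RFX3-DT (-1.92 ± 0.30) were further -DT starts with large depletion. With ribosomal protein centring neither MRPL20-DT (-0.78) nor RFX3-DT (-0.73) was still called.

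Antisense starts covered the same range. TMCO1-AS1, named after an endoplasmic reticulum calcium channel gene, rose from 2.23, 1.45 and 2.41 CPM to 12.2, 14 and 15.6, the largest enrichment among named members at 2.80 ± 0.30 (adjusted p = 1.03e-07). USP2-AS1 rose from 4.64, 4.2 and 5.62 to 27.3, 24.7 and 30.3 (2.52 ± 0.21). DLGAP1-AS1 rose from 17, 19.1 and 20.8 to 88.6, 99.3 and 93.8 (2.31 ± 0.15). OIP5-AS1, the conserved lncRNA also known as cyrano, was among the 5 most abundant -AS members and rose from 73.4, 69.7 and 63.1 to 269, 344 and 335 CPM (2.20 ± 0.12, adjusted p = 1.43e-11). An unnamed gene on the same strand starts close to it, so its reads may be shared.

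Depleted antisense starts included UGDH-AS1, opposite the enzyme that makes UDP-glucuronate, at 10.8, 11.5 and 10.9 CPM in control inputs and 1.47, 1.91 and 3.38 in control IPs (-2.39 ± 0.40, adjusted p = 3.69e-05). Its partner UGDH went the other way, from 37.2, 45 and 50.3 to 70.4, 75.4 and 71.4 CPM (0.72). PIK3CD-AS2 fell from 16.7, 21.4 and 19.9 to 4.97, 4.27 and 5.91 CPM (-1.94 ± 0.23). ZNF232-AS1 fell from 59.2, 54.4 and 63.1 to 19.6, 16.9 and 20.6 (-1.63 ± 0.14). Among the most abundant -AS members, FGD5-AS1 (-0.63) and NOP14-AS1 (-0.57 ± 0.13) were lower in the IP and HSD17B1-AS1 (1.75 ± 0.13) and BCAN-AS2 (1.64) higher.

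Members were also described by the annotated first base. The median enrichment of -DT members in control cells was 0.52 with A (n = 84), 0.12 with G (n = 132), -0.04 with C and 0.13 with T. For -AS members it was 0.50 with A (n = 146), 0.08 with G, -0.11 with C and 0.09 with T. In KO cells A and G gave 0.62 and 0.48 for -DT and 0.46 and 0.29 for -AS. Protein-coding genes gave 0.18 with A and -0.06 with G in control cells. The differences between bases were not tested. These are descriptions from annotated starts. Strongly enriched named starts include every first base. AJUBA-DT, RAB30-DT, USP2-AS1 and DLGAP1-AS1 begin with A, HK2-DT and TMCO1-AS1 with G, CENATAC-DT with C and ZMPSTE24-DT with T.

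In KO cells, where the enzyme that makes m6Am had been targeted, the antibody still enriched many of these starts. Calls were 102 higher (35.1%) and 34 lower (11.7%) for -DT and 133 higher (28.6%) and 60 lower (12.9%) for -AS, beside 28.4% and 31% of all genes. The medians were 0.47 and 0.31, against -0.07 for all genes. Other lncRNAs were like the members, with 32.6% higher, 12.8% lower and a median of 0.42, whereas the median of protein-coding genes was -0.16. With ribosomal protein centring the KO calls were 142 and 13 for -DT and 206 and 27 for -AS, beside 45.8% and 14.7% of all genes. Of the -DT starts enriched in control cells 59 were also enriched in KO cells, 78.7% of the control list and 57.8% of the KO list. For -AS starts the number was 81, or 74.3% and 60.9%, and over all genes the shares were 68.5% and 66.8%.

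**Figure D2:**
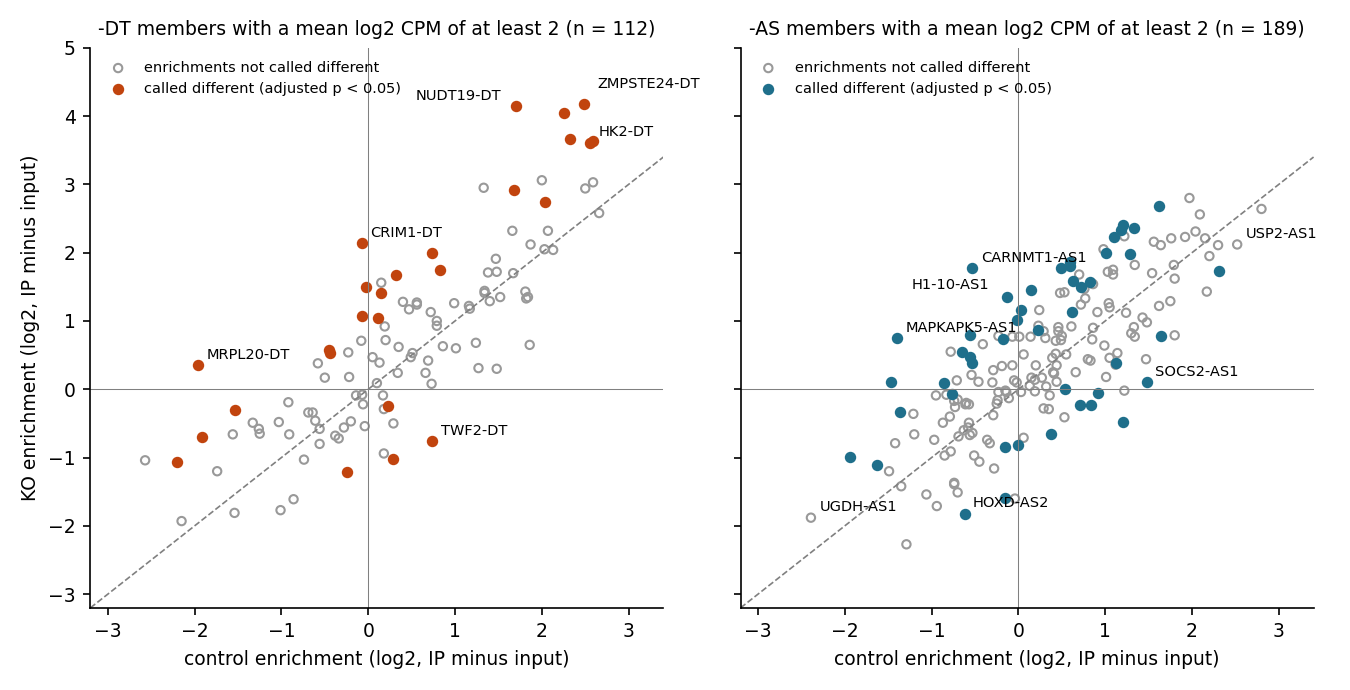
Enrichment (log2 IP minus input) in control cells (x axis) against KO cells (y axis) for the 112 -DT and 189 -AS members with a mean log2 CPM of at least 2; filled points differed between genotypes at an adjusted p under 0.05 and the line marks equal enrichment. Of the filled -DT points 22 lie above the line and 4 below it, and of the filled -AS points 32 lie above and 14 below.

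Enrichment in control cells minus that in KO cells was then tested. The value is positive where the antibody enriched a start more, or depleted it less, in control cells. For -DT members 6 were positive (2.06%) and 29 negative (9.97%), and for -AS members 20 were positive (4.3%) and 40 negative (8.6%), beside 15.8% and 13% of all genes. So, without regard to abundance, fewer members than genes at large passed in either direction. Most of those that did had the larger enrichment value in KO cells. At a mean log2 CPM of at least 2, 4 of 112 -DT members were positive (3.57%) and 22 negative (19.6%). For -AS it was 14 (7.41%) and 32 (16.9%) of 189, against 21.4% positive and 15.8% negative of all such genes. At that abundance only the positive share was below that of all genes. The medians were -0.26 for -DT and -0.08 for -AS, with 0.06 for all genes, 0.18 for protein-coding genes and -0.43 for other lncRNAs. Ribosomal protein centring turned the members' medians to 0.31 and 0.48 and the calls to 33 positive and 8 negative for -DT and 68 and 13 for -AS, beside 37.6% and 4.9% of all genes. The median of all genes then became 0.62, and the members stayed 0.31 and 0.14 below it as before. The direction within a class is therefore relative to other genes.

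**Figure D3:**
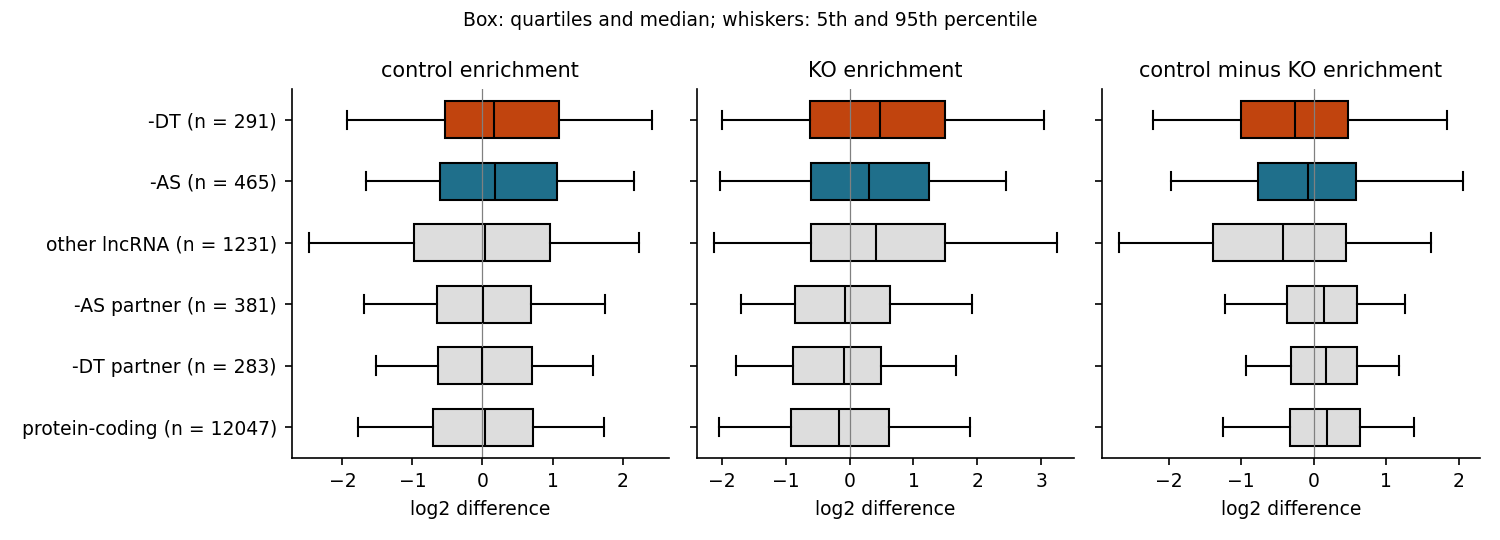
Enrichment in control cells, enrichment in KO cells and their difference (log2, x axis) for -DT, -AS and other lncRNA starts, -AS and -DT partners and protein-coding genes (y axis). Boxes span the quartiles with the median and whiskers run from the 5th to the 95th percentile of genes. In KO cells the 3 lncRNA classes have medians of 0.47, 0.31 and 0.42, and protein-coding genes -0.16.

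Members were also split by how they lie against the partner. The 165 -DT members divergent at most 300 bases from the partner had a median control enrichment of 0.19 and a genotype difference of -0.25, with 4 positive and 14 negative calls. The 36 divergent at a larger distance had -0.06 and -0.53, with 1 positive and 6 negative, and the 81 starting inside the partner had 0.15 and -0.03, with 1 and 8. By first base, the genotype difference of -DT members had a median of -0.25 with A and -0.35 with G. For -AS members it was 0.07 with A and -0.23 with G. Protein-coding genes had 0.26 and 0.11. By the first base of the canonical transcript the -DT values were -0.14 and -0.28 and the -AS values -0.06 and -0.10, so the -AS value with A turned sign.

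Members with negative differences showed different patterns over the 4 groups. HK2-DT and ZMPSTE24-DT were enriched in both genotypes and more in KO. HK2-DT reached 296, 302 and 250 CPM in KO IPs over 24.2, 20.6 and 24.8 in KO inputs, so its enrichment of 3.61 ± 0.11 exceeded that in control cells (difference -1.05 ± 0.16, adjusted p = 6.39e-05). ZMPSTE24-DT, beside the protease that matures lamin A, had 18.9, 20.5 and 24 CPM in control inputs, 110, 115 and 129 in control IPs, 16.4, 21.7 and 19.2 in KO inputs and 349, 324 and 356 in KO IPs. Its difference was -1.69 ± 0.17 (adjusted p = 9.89e-07). PDCD6IP-DT, beside the ESCRT-associated ALIX gene, had 16.4, 16.6 and 18.6 CPM in control IPs and 27.1, 31.7 and 30.4 in KO IPs (-1.80 ± 0.46). Its IPs differed by 0.79 between genotypes and its inputs by -1.01, an input change that was called. NUDT19-DT had 8.69, 10.3 and 12.8 CPM in control IPs against 21.2, 27.8 and 21.2 in KO IPs (-2.45 ± 0.48). Its inputs were 3.05 to 3.3 CPM in control and 0.725 to 1.8 in KO cells.

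CRIM1-DT and MRPL20-DT were not enriched in control cells. CRIM1-DT, beside a transmembrane protein that binds bone morphogenetic proteins, stood at 11.6, 17.5 and 21.7 CPM in control inputs, 15, 11.4 and 22.4 in control IPs and 17.9, 15.8 and 9.82 in KO inputs. Only in the KO IPs was it higher, at 62.4, 55.6 and 68.8, giving a difference of -2.21 ± 0.36 (adjusted p = 0.000124). MRPL20-DT, 1803 bases from a gene of the mitochondrial ribosome's large subunit, fell in control IPs from 4.91, 5.34 and 6.21 to 0.774, 1.91 and 1.85 CPM (-1.96 ± 0.37), and with ribosomal protein centring by 0.78, which was not called. In KO cells it stood at 6.96, 5.49 and 7.22 in inputs and 6.45, 10.3 and 8.66 in IPs, and the difference between genotypes was -2.32 ± 0.52 (adjusted p = 0.00215).

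Fewer divergent starts went the other way. TWF2-DT, which starts inside the gene of the actin-binding protein twinfilin-2, rose in control IPs from 15.9, 20.7 and 18.8 CPM to 34.5, 35 and 23.7 and fell in KO IPs from 19.6, 19.8 and 21.8 to 11.8, 12.2 and 12.1. Input and IP did not overlap in either genotype, and the difference was 1.49 ± 0.25 (adjusted p = 0.000137). NUP50-DT, beside a nuclear pore gene, had 39, 37.4 and 31.6 CPM in control inputs and 31.5, 33.4 and 26 in control IPs, but fell in KO cells from 57.8, 54.5 and 60.5 to 21.7, 27.8 and 25.3 CPM (0.96 ± 0.20). OSER1-DT had 1.31 ± 0.37 (adjusted p = 0.0113).

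H1-10-AS1 was among the more abundant antisense starts with a difference between genotypes. It starts inside the linker histone gene H1-10 with no other annotated start within 500 bases. Its level was 61.1, 53.5 and 61.4 CPM in control inputs, 54.1, 47.8 and 59.2 in control IPs, 77.3, 80.7 and 82.2 in KO inputs and 196, 215 and 202 in KO IPs. The KO IPs stood highest, with an enrichment of 1.35 ± 0.10 in KO cells and -0.13 in control cells (adjusted p = 0.309). The difference was -1.48 ± 0.15 (adjusted p = 7.21e-07). The KO inputs also lay above the control inputs, an input change of 0.45 that was called. NUP153-AS1, inside another nuclear pore gene and with an equally isolated start, had 16.5, 16.6 and 15.8 in control inputs, 11, 10.6 and 11.5 in control IPs, 20.4, 18.8 and 27 in KO inputs and 40.3, 36.6 and 37.3 in KO IPs (-1.37 ± 0.23).

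MAPKAPK5-AS1, opposite a stress-activated kinase gene, crossed over between genotypes. It fell in control IPs from 8.41, 7.18 and 13.8 CPM to 3.34, 3.49 and 3.88 and rose in KO IPs from 6.39, 7.92 and 6.9 to 9.39, 12.7 and 13.8, a difference of -2.15 ± 0.39 (adjusted p = 0.000363). CARNMT1-AS1 had the most negative value among the named -AS members at -2.30 ± 0.48, with 2.61 to 3.34 CPM in control IPs and 8.09 to 11.4 in KO IPs.

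SOCS2-AS1, opposite a suppressor of cytokine signalling, was enriched more in control cells. It rose there from 10.6, 11.3 and 10 CPM to 34.1, 24.5 and 31.3, and in KO cells stood at 10.7, 12.8 and 12.7 in inputs and 13.3, 12.7 and 12.7 in IPs. The enrichments were 1.48 ± 0.18 and 0.10, and the difference 1.38 ± 0.25 (adjusted p = 0.000377). GCC2-AS1 (1.68 ± 0.48), HOXD-AS2 (1.20 ± 0.24) and TRIM52-AS1 (1.08 ± 0.22) were positive too, the last sharing its place with another gene on the same strand. HOXD-AS2 was lower in the IP than in the input in both genotypes, by -0.62 in control and -1.82 in KO cells. Its KO inputs were above its control inputs by 0.84, and its IPs differed by -0.36.

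Subtracting the partner's log2 CPM from the member's within each library removes any scaling between libraries. This was fitted over 2969 opposite-strand pairs. For pairs other than the named ones, the non-coding gene minus the coding gene was taken. Where both were coding or both non-coding, it was the minus-strand gene minus the plus-strand gene, and the sign is then arbitrary. In control cells 67 of 283 -DT members were enriched more than their partner (23.7%) and 42 less (14.8%), and 88 of 386 -AS members more (22.8%) and 56 less (14.5%), beside 22.7% and 24.9% of all pairs. In KO cells it was 100 more and 40 less for -DT and 114 and 59 for -AS, beside 29.1% and 25.9%. The genotype difference of the pair was positive for 6 -DT members (2.12%) and negative for 30 (10.6%), and positive for 16 -AS members (4.15%) and negative for 35 (9.07%), beside 7.11% and 10.7% of all pairs. The median pair difference between genotypes was -0.48 for -DT and -0.15 for -AS, with -0.14 for the 2300 other opposite-strand pairs. For starts more than 500 bases apart it was -0.29, -0.26 and -0.24. The -AS median was thus close to that of the other pairs, and the shares of negative calls were near those of all pairs in both classes. Since some of the other pairs have an arbitrary sign, they are only a rough background for a direction.

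The coding partners were like other coding genes. Between genotypes 60 of the -DT partners were positive and 33 negative (median 0.17), and 70 and 47 of the -AS partners (median 0.14), beside 19.9% and 10.2% of all protein-coding genes (median 0.18). Pairs were then kept if the member reached the minimum mean, whatever the partner's level. Across 108 such -DT pairs the genotype differences of member and partner had a Pearson r of 0.01, and across 153 -AS pairs of -0.03. The r values of -DT and -AS pairs were 0.16 and 0.16 for control enrichment and 0.14 and 0.12 for KO enrichment. For the input change they were 0.28 and 0.24, and for the change between IPs 0.14 and 0.07. These describe genes of the same 12 libraries and carry no test.

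HK2-DT and HK2, whose starts lie 140 bases apart, differed in opposite directions between genotypes. HK2 rose in control IPs from 49, 37.6 and 39.2 CPM to 132, 119 and 123 and stood in KO cells at 54.3, 46.4 and 43.9 in inputs and 67.8, 47.8 and 62.5 in IPs, a difference between genotypes of 1.29 ± 0.19 against -1.05 for HK2-DT. The pair differed by -2.34 ± 0.24 (adjusted p = 5.82e-07). MRPL20 likewise went from 468, 447 and 460 CPM in control IPs to 234, 238 and 221 in KO IPs, and the MRPL20-DT pair differed by -3.37 ± 0.57. PDCD6IP had 0.72 ± 0.13 and its pair -2.51 ± 0.49. CRIM1 had a genotype difference of 0.01 and its pair differed by -2.22 ± 0.37. AJUBA and ZMPSTE24, in contrast, moved in the same direction as their -DT gene, at -0.39 and -0.79 ± 0.17.

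**Figure D4:**
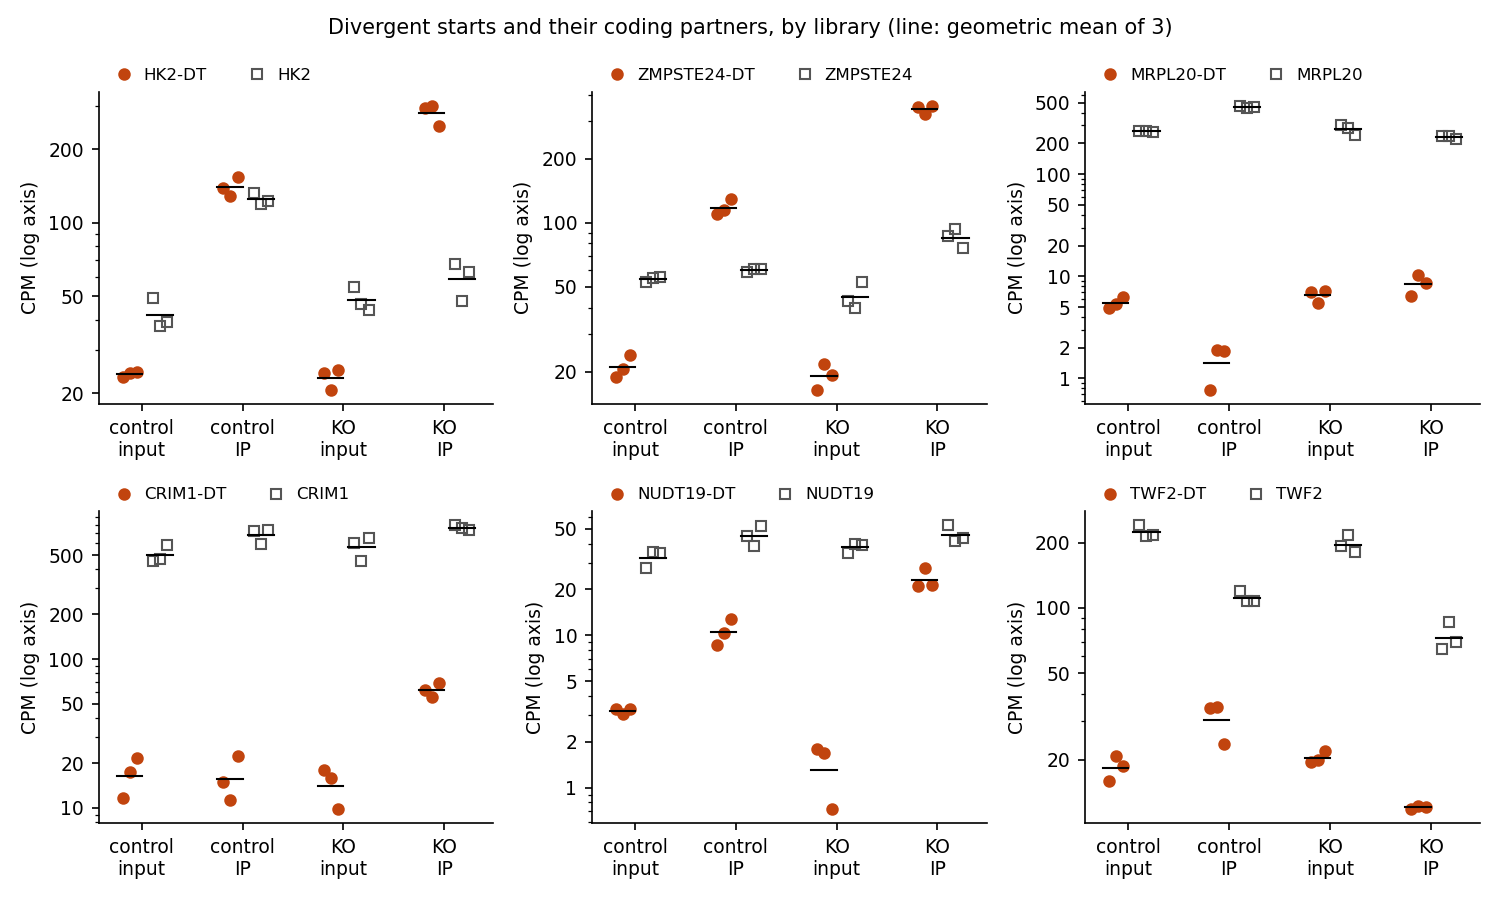
CPM (y axis, log scale) of 6 -DT genes and their coding partners in the 3 libraries of each of the 4 groups (x axis); points are libraries and lines their geometric means. HK2-DT climbs to 250 to 302 CPM in the KO IPs while HK2 stays between 47.8 and 67.8.

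H1-10-AS1 and H1-10 also moved apart. H1-10 averaged 702 CPM in control inputs and 1585 in control IPs, and 747 and 875 in KO cells (0.94 ± 0.17 between genotypes). The pair differed by -2.42 ± 0.20 (adjusted p = 1.94e-08). MAPKAPK5 fell in the IPs of both genotypes, from means of 94.9 to 40.1 and 118 to 48 CPM, and its pair differed by -2.20 ± 0.42. SOCS2 also fell in both (-1.07 and -1.11) while SOCS2-AS1 rose in control cells, giving a pair difference of 1.34 ± 0.30. OIP5, which helps load the centromeric histone, lost most of its enrichment in KO cells (0.86 ± 0.15), and OIP5-AS1 did not show a difference that passed (0.25, adjusted p = 0.319). The OIP5 pair itself did not pass either (-0.62 ± 0.23, adjusted p = 0.0629).

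In control cells some pairs were far apart. IRF2-DT was enriched by 1.40 in control cells while IRF2, an interferon regulatory factor, fell from 7.87, 9.47 and 7.37 CPM to 2.4, 1.91 and 0.583, a pair difference of 3.96 ± 0.44 (adjusted p = 1.04e-07). This pair also differed between genotypes, by 2.21, a call that was lost without the mean-variance trend. FBXL19-AS1 exceeded FBXL19 by 2.90 ± 0.31 and SLC25A5-AS1 its partner by 2.85 ± 0.37. ZNF407-AS1 was below its partner by 3.55, at -3.55 ± 0.40.

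**Figure D5:**
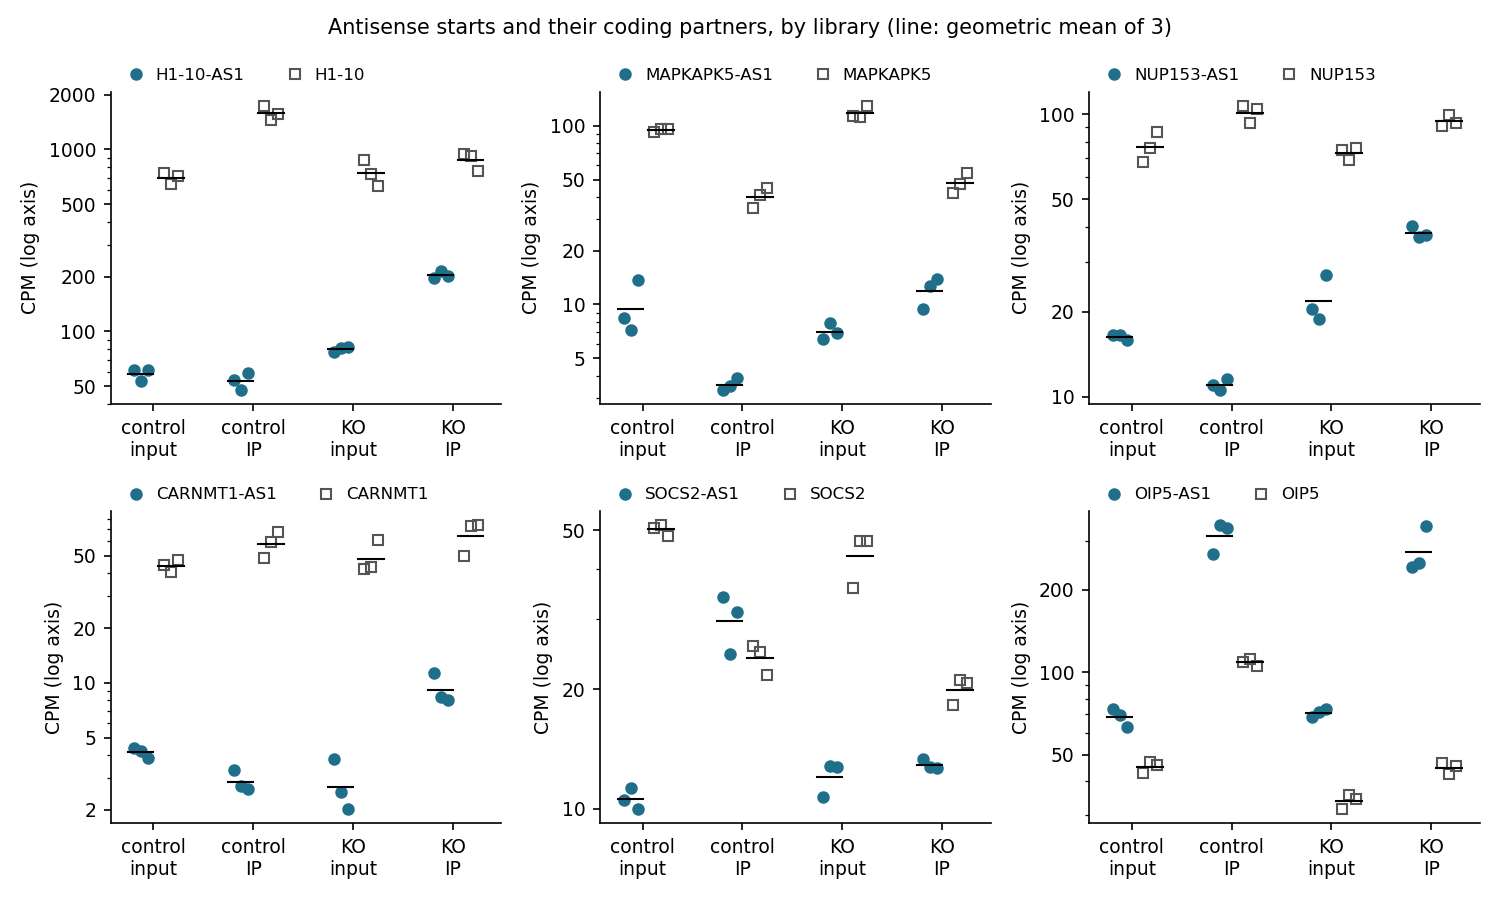
CPM (y axis, log scale) of 6 -AS genes and their coding partners in the 3 libraries of each of the 4 groups (x axis); points are libraries and lines their geometric means. H1-10-AS1 stands at 196 to 215 CPM in the KO IPs and at 47.8 to 82.2 in all other libraries.

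Whether the counting separated the strands was not given in the sources used here, and without strand a gene and its antisense neighbour could share reads. The counts describe this but cannot settle it, because the window around a start is not known. With a window downstream of each start, divergent genes would share few reads even if strands were not separated. Of 235 pairs on opposite strands with starts at most 50 bases apart none had equal reads in the 12 libraries, and the median absolute log2 ratio of their reads was 2.38, close to 2.66 for opposite starts 201 to 1000 bases apart. For 219 pairs on the same strand within 50 bases the median was 0.154. In all, 9 -DT and 31 -AS members lie within another gene on their strand or within 200 bases of such a start. Only 18 -DT and 132 -AS members had an isolated start, at least 500 bases from any other. Over these the median control enrichment was -0.53 and 0.41 and the genotype difference -0.64 and -0.14.

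The IPs of both genotypes, compared directly, gave 67 -DT members higher and 17 lower in KO and 84 -AS members higher and 51 lower, beside 23% and 26% of all genes. The medians were 0.30 and 0.07, against -0.04 for all genes. Ribosomal protein centring turned them to -0.22 and -0.45 (30 higher and 66 lower, and 36 and 127), with all genes at -0.57 (9.84% and 47.1%).

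The inputs, which measure the abundance of capped 5′ ends, changed less. In KO inputs 7 -DT members were higher (2.41%) and 6 lower (2.06%), and 15 -AS members were higher (3.23%) and 14 lower (3.01%), beside 5.56% and 5.67% of all genes. The -DT total of 13 became 8 without control input 3 and 6 without KO input 3. For a bulk sample, fewer cells with a transcript and less of it per cell cannot be told apart.

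FGF14-AS2 showed the largest rise among named members, from 1.15, 2.37 and 2.12 CPM to 7.82, 9.55 and 6.57 (2.14 ± 0.35, adjusted p = 0.000385). HOXD-AS2, in the HOXD cluster of developmental regulators, rose from 26.9, 28 and 21.4 to 46.8, 43.6 and 45.2 (0.84 ± 0.17). CCNY-AS1 rose from 16.2, 17 and 15.8 to 31.9, 24.7 and 30.9 (0.83 ± 0.18). ZNF528-AS1 also rose, by 1.83 ± 0.42. Among -DT members NUP50-DT rose from 39, 37.4 and 31.6 to 57.8, 54.5 and 60.5 (0.68 ± 0.14). In each of these with all 6 values given, every KO input was above every control input.

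MSRB3-AS1, opposite a methionine sulfoxide reductase gene, fell from 61.1, 74.3 and 81.5 CPM to 36.5, 39.6 and 40.7 (-0.88 ± 0.13, adjusted p = 8.65e-05). DLGAP1-AS2 fell from 24, 16.8 and 19.3 to 6.1, 12 and 8.2 (-1.23 ± 0.19). FAM151B-DT fell from 21.3, 21.8 and 22.8 to 10.1, 12.5 and 9.17 (-1.06 ± 0.22). BOLA3-DT, beside a gene for an iron-sulfur cluster factor, fell from 27.2, 23.7 and 23.7 to 16.4, 16 and 13.7 (-0.69 ± 0.16). Members of chromosome 18 were called 5 times among 15, with 2 higher and 3 lower, DLGAP1-AS1 and DLGAP1-AS2 among the latter. Over all 270 tested genes of that chromosome 24.4% were higher and 18.5% lower.

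Of the named input changes, 8 did not keep the call when 1 library was left out. PELP1-DT (1.32) lost it without control input 3 or KO input 1, NUDT19-DT (-1.30) without KO input 3 and CEBPB-AS1 (1.32) without control input 3. CD27-AS1 (-1.01) lost it without control input 1 or 2 or KO input 2 and PIK3CD-AS2 (-0.91) without control input 2 or 3 or KO input 3. Their values ranged then from 1.08 to 1.57, -1.53 to -0.88, 0.98 to 1.53, -1.21 to -0.78 and -1.01 to -0.83. ZNF236-DT (1.06, range 0.97 to 1.21), GALNT7-DT (-0.81, -1.06 to -0.62) and C2orf74-DT (-0.66, -0.81 to -0.42, the last without KO input 3) lost it without control input 1 or 3 or any KO input, without any control input or KO input 1 or 2, and without any control input or KO input 3.

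A further 13 input changes, among those reported, passed in members below the minimum mean, picked out after their values were seen. GATA2-AS1, opposite a haematopoietic transcription factor gene, went from 13 reads over the 3 control inputs to 100 over the 3 KO inputs (adjusted p = 0.00012), FOXD3-AS1, beside a neural crest regulator, from 6 to 38 and ZNF790-AS1 from 23 to 131. RAB17-DT went from 1 read to 20 (ratio 22.3, 95% exact counting interval 3.57 to 925) and POU2F2-AS1 from 2 to 19 (10.6, 2.56 to 93.9). In the other direction AQP5-AS1 went from 50 reads to 3 (14.9, 4.82 to 74.8) and PAX8-AS1 from 26 to 2 (11.6, 2.92 to 101). BAZ2B-AS1 went from 16 to 3, a ratio of 4.78 (1.37 to 25.6). SATB1-AS1 and MZF1-AS1 fell too, and ZNF516-AS1, LRRC8D-DT and ZFHX4-AS1 rose. The intervals cover counting error only.

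Within pairs few input changes passed. Relative to the partner, 3 -DT members rose and 2 fell, and 6 -AS members rose and 6 fell, beside 2.86% and 1.35% of all pairs. Leaving out control input 1, 2 or 3 or KO input 1 or 3 took the -DT count of 5 to between 1 and 3, and leaving out any input or control IP 3 took the -AS count of 12 to between 2 and 7. BOLA3-DT kept its call against BOLA3 without any 1 library (-0.97) but lost it without the mean-variance trend.

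All 42 listed genes of the machinery that removes divergent transcripts (exosome, its nuclear adaptors, Integrator, cap-binding and termination factors) were in the table. Their own 5′ ends gave 20 higher and 6 lower calls in control enrichment (all genes 27.7% and 28.2%) and 18 and 11 in KO enrichment (28.4% and 31%). Between genotypes 9 were positive and 4 negative (15.8% and 13%), in KO inputs 3 were higher and 5 lower (5.56% and 5.67%), and in KO IPs 6 higher and 17 lower (23% and 26%). PCF11, a termination factor, rose from 24.5 ± 1.5 to 177 ± 11 CPM in control IPs (SD, n = 3; 2.85 ± 0.10). EXOSC4, an exosome ring subunit, was enriched more in control cells (0.87), as was INTS5 of Integrator (1.57 ± 0.24). ZFC3H1 (-0.76) and PABPN1 (-0.75), which together hand polyadenylated nuclear RNA to the exosome, were enriched more in KO cells. In the inputs PCF11 (0.60) and PABPN1 (0.49) were higher in KO, and SRRT (-0.75), which links the cap to decay, and INTS7 (-0.68) were lower.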

How the data were processed

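The deposited table gives, for 16009 genes and 12 libraries, log2 CPM at transcript starts, made by the authors. The submitters' processing notes name edgeR 3.12.1 and R 3.3.3, featureCounts, deepTools 3.0.2, SAMtools 1.7, HISAT2 2.0.4 and hg38, in no stated role or order. For the window around a start, the annotation, strand setting, filter and scaling factor, the sources used here give nothing. Whole reads were recovered for 100% of values within 0.01 of a read. The deposited values hold on average 0.25 of a read added before the logarithm, from 0.132 in a KO IP to 0.33 in a control input. Columns carry numbers and the labels letters, so columns were assigned to groups only.

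Gene names, types and starts came from GENCODE 44, which matched 15903 of the 16009 identifiers. The partner is the protein-coding gene named by the symbol without its ending. Members and lists were chosen with earlier results of these data known. Differences were fitted with limma 3.58.1 in R 4.3.3 (4 group means, 12 libraries, mean-variance trend), with Benjamini-Hochberg adjustment over all genes and calls at an adjusted p under 0.05. No count model was run, since the unit is log2. Pair differences (member minus partner, per library) were fitted over 2969 pairs, with the lower mean log2 CPM of both genes as the trend covariate. Besides the named pairs these hold opposite-strand starts within 5000 bases, taken as non-coding minus coding, or else as minus strand minus plus strand. Scripts were tested on simulated data.

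Members were named if they passed the test, averaged 2 or more in log2 CPM and had compared libraries that did not overlap. Among these, per class, the 5 largest values in each direction of control enrichment, of its difference between genotypes and of the input change, the 3 largest of KO enrichment, the 5 most abundant members and the 4 largest pair differences each way were eligible. A few members are not reported here by name. Of the turnover list, up to 4 genes with the smallest adjusted p per comparison were named. Of 20 cell type markers 5 were among the genes analysed here. Sequences came from hg38, and promoter windows from RefSeq. Read totals per library, 1753164 to 4625190, limit precision for members with few reads. Alternatives were another library centring (median or 77 ribosomal protein mRNAs), on average 2 added reads, a filter on low values and no trend. Others were only the compared groups, a replicate block, isolated starts, and leaving out each library.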

Additional observations from a re-analysis of the deposited data

Results flagged for a closer look

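For 17 named members the enrichment by the antibody differed between control and KO cells in the interaction test (control minus KO, log2, limma adjusted over all genes). Among -DT members it was larger in control cells for TWF2-DT (1.49), OSER1-DT (1.31) and NUP50-DT (0.96). It was larger in KO cells for NUDT19-DT (-2.45), MRPL20-DT (-2.32), CRIM1-DT (-2.21), PDCD6IP-DT (-1.80) and ZMPSTE24-DT (-1.69). Among -AS members it was larger in control cells for GCC2-AS1 (1.68), CSRP1-AS1 (1.43), SOCS2-AS1 (1.38), HOXD-AS2 (1.20) and TRIM52-AS1 (1.08). It was larger in KO cells for CARNMT1-AS1 (-2.30), MAPKAPK5-AS1 (-2.15), H1-10-AS1 (-1.48) and NUP153-AS1 (-1.37). Some members called larger in control cells had negative enrichment values in both genotypes. In control and KO cells these were -0.25 and -1.21 for NUP50-DT, -0.16 and -1.59 for CSRP1-AS1 and -0.62 and -1.82 for HOXD-AS2. For them, larger means less negative.

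Calls for 16 of the 17 were kept when any 1 library was left out. The call for CSRP1-AS1 was lost without control input 3, any KO input, control IP 1 or 2, or KO IP 1 or 3, and its value without KO IP 3 was 0.94.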

How the results depend on the processing

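Over the alternatives run, no named call changed direction, but class medians did where their signs differ below. Centring libraries on ribosomal protein mRNAs raised the members called in control enrichment to 176 (-DT) and 278 (-AS). The medians for -DT and -AS then became 1.35 and 1.37 in control cells, 1.09 and 0.93 in KO cells, 0.31 and 0.48 for their difference and -0.22 and -0.45 between IPs, and the -AS input median 0.08. Centring on the median of all genes gave 0.26 and 0.28 in control and 0.54 and 0.38 in KO cells. With 2 reads added the medians were 0.12 and 0.13 in control cells, 0.39 and 0.24 in KO cells and 0.26 between IPs for -DT. The filter on low values, which left 12729 genes, gave 0.31 and 0.37 in control cells, 0.64 and 0.45 in KO cells, -0.15 for the -AS genotype difference and 0.36 between IPs for -DT. Over isolated starts the medians were -0.53 and 0.41 in control cells, -0.10 and 0.64 in KO cells, -0.64 and -0.14 for the difference, 0.95 and 0.20 between IPs and 0.16 between inputs for -DT. For pairs over 500 bases apart the control enrichment medians were 0.34 and 0.25, the genotype differences -0.29 and -0.26 and the -DT input median -0.06. Without a mean-variance trend 1 -DT and 2 -AS pairs were called in the inputs. Apart from shifts set by the centring itself and subsets of fewer members, the cause was not tested.

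Leaving out each library in turn gave medians for -DT of 0.13 to 0.21 in control cells, 0.46 to 0.49 in KO cells, -0.29 to -0.18 for the difference, 0.02 to 0.14 between inputs and 0.26 to 0.33 between IPs. For -AS they were 0.17 to 0.22, 0.26 to 0.35, -0.18 to -0.07, -0.02 to 0.07 and 0.02 to 0.14. Members called in the inputs ranged from 6 to 14 (-DT) and pairs from 1 to 5 (-DT) and 2 to 15 (-AS). Pair calls for OSER1-DT, DNAJC9-AS1 and ICA1-AS1 between genotypes, and for ZNF433-AS1, LRP4-AS1 and BCAN-AS2 in control cells, were lost without some library.

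Column numbers were not taken to pair the libraries: same-numbered libraries of different groups had deviations correlated at -0.0754 to 0.244. Between input and IP of 1 genotype the same-number correlations were 0.161, 0.0894 and 0.226 in control and 0.197, 0.0697 and 0.244 in KO cells, and each input correlated best with the IP of its own number. This is a hint of pairing from the data, but not all exceeded 0.1, and across genotypes library 2 had -0.0754 between inputs. With the number as a replicate block, 115 -DT and 162 -AS members were called in control enrichment, 141 and 202 in KO enrichment, 40 and 66 between genotypes, 15 and 33 in the inputs and 88 and 135 between IPs. The pairs called were 108 and 148, 41 and 54, and 5 and 11 for control enrichment, genotype difference and inputs. No named call changed under the block. The block joined equal numbers across both genotypes, so pairing of input and IP within 1 genotype was not fitted on its own. Few reads limit members below 2 log2 CPM.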
